A study of Schizosaccharomyces pombe with 9 samples.

Results

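The 44 genes described here encode the cytosolic translation factors of fission yeast (Schizosaccharomyces pombe), the proteins that start, elongate and end a polypeptide chain on the ribosome. They are the genes whose product text in the authors' tables names a translation initiation, elongation or release factor and does not name mitochondria, with noncoding RNA IDs left out. They make up 44 of the 6986 genes in the count table, with 32 initiation, 8 elongation and 4 release factors. The rule reads only product text, so 7 mitochondrial factors are left out, as are int6 (eIF3e) and the eIF5A genes, whose product is worded otherwise.

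Poly(A)+ RNA was sequenced from 2 suppressor mutants, STF6 and STF9, and from the strain they derive from, rpb1-CTD-T4A29 (T4A below), in which Thr4 of the carboxy-terminal domain (CTD) repeats of RNA polymerase II is replaced by alanine. The series title places the mutants among suppressors of the over-repression of phosphate genes that this CTD mutation causes. Each group is 1 strain with 3 libraries, all from vegetative log phase cultures at 30 °C in rich (YES) medium. The labels do not say whether the 3 libraries came from separate cultures, so p-values measure the spread between these libraries, which may be technical. All 3 groups are read here as carrying the CTD mutation, since the mutants are named as its suppressors, and a strain with a normal CTD and the gene mutated in each suppressor are not analysed here.

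During initiation, eIF2 brings the initiator tRNA to the small ribosomal subunit, eIF3 serves as a scaffold there, and the cap-binding eIF4F factors recruit the mRNA. During elongation, eEF1A delivers each charged tRNA, eEF2 moves the ribosome by a codon, and eEF3, a factor of fungi, helps the spent tRNA leave. At a stop codon eRF1 and eRF3 release the chain. These mRNAs are abundant in growing yeast, and in many species eEF1A is among the most abundant of all proteins.

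The libraries held 15374453 to 22909747 counts. Translation factor genes took 2.89 to 3.01% of them in STF6, 2.99 to 3.01% in STF9 and 2.71 to 2.81% in T4A. Levels (CPM) are counts over a library size that was scaled by TMM. They are relative within bulk RNA, so a shift in the state of some cells and a shift in RNA per cell cannot be told apart. Meiosis genes, a check of the labelled vegetative stage, reached at most 5.89 CPM, for mei4, the highest of 8 such genes. All 44 genes had enough counts to be tested, with 188 to 103367 counts per library. Reads from the opposite strand had little weight where they could be seen, since the 5 antisense features named for these genes held at most 28 counts in any library.

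In STF6 against T4A, 10 of the 44 genes were higher, 9 were lower and 25 were not called (edgeR quasi-likelihood test, Benjamini-Hochberg adjusted p under 0.05). Of all 5951 genes tested, 19.2% were higher and 19.2% lower in this comparison, so the share of translation factor genes called lies near that of all genes. In STF9 against T4A, 14 were higher, 10 were lower and 20 were not called, beside 23.0% higher and 21.3% lower among all genes tested. In 20 of the 44 genes the STF6 libraries did not overlap T4A, 9 above and 11 below, beside 25.7% above and 24.5% below (50.3% in all) among all genes tested. In 26 the STF9 libraries did not, 15 above and 11 below, beside 28.7% above and 25.3% below (54.0% in all). Without STF6 replicate 2 or 3 the number higher in STF6 was 5 or 6, and without STF9 replicate 2 or 3 the number higher in STF9 was 7 or 8. The median log2 fold of the 44 was 0.03 in STF6 and 0.10 in STF9, beside 0.03 and 0.04 over all genes. As a list, then, these genes stood close to the background, and what follows concerns which of them were on each side. Changes were mostly small: only tef101 and tef102 differed by 2-fold or more.

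The mutants gave the same calls for most genes: 10 were higher in both, 9 were lower in both, 20 were called in neither and 5 were called in STF9 alone. Both comparisons use the same 3 T4A libraries, so their likeness is no independent support. Between STF9 and STF6 none of the 44 genes was called, with 2 at an unadjusted p under 0.05, and none of the 5951 genes was called by edgeR, with 178 at an unadjusted p under 0.05. DESeq2, run on every gene with counts, called 1 gene in that comparison. The estimate of spread takes in the T4A libraries, which spread more than the mutant libraries, so few calls do not show that the mutants are alike.

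**Figure D1:**
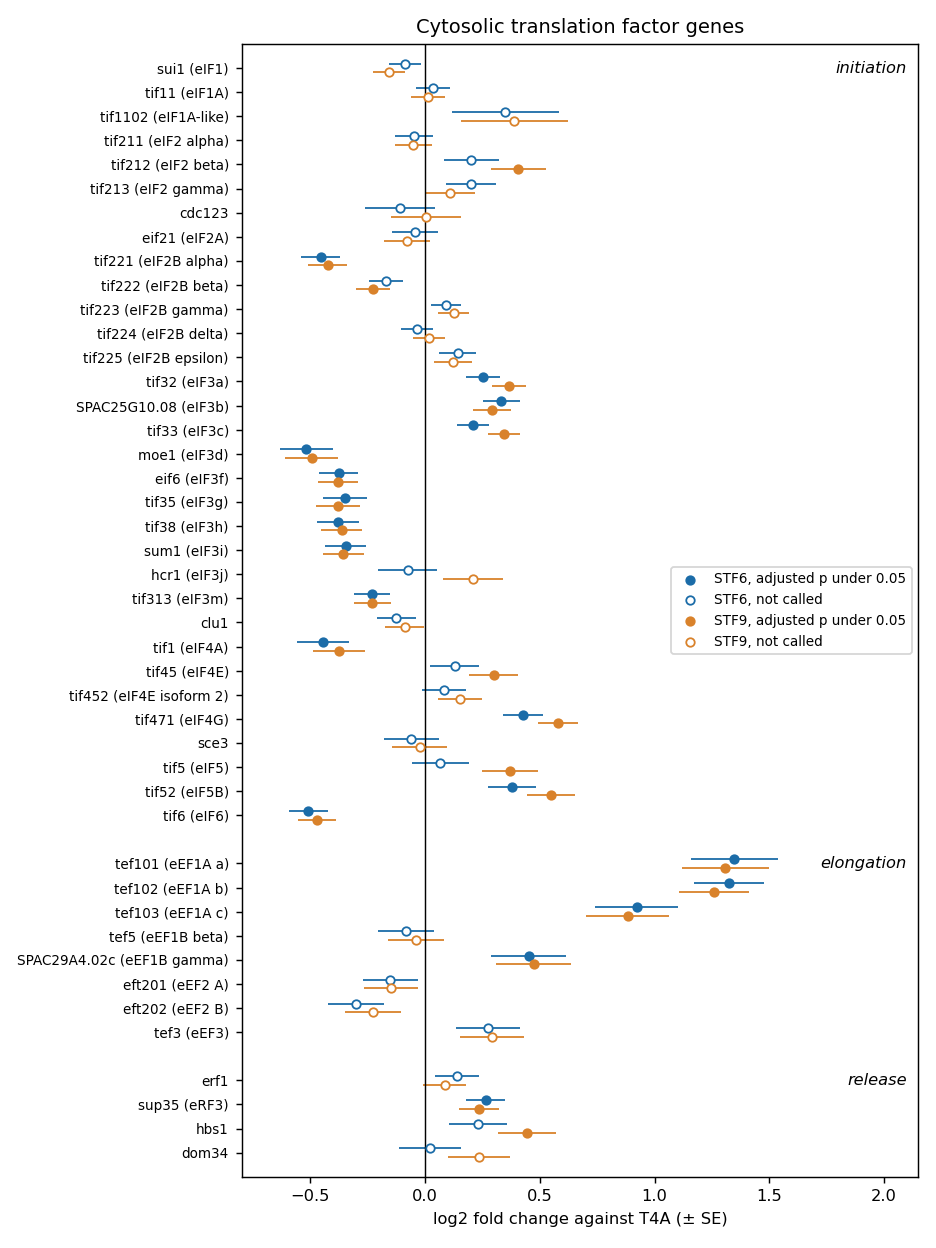
Log2 fold change against T4A (x axis, ± SE from edgeR) of the 44 translation factor genes, by role from initiation to release, for STF6 and STF9. Filled points have an adjusted p under 0.05. The 3 eEF1A genes lie farthest to the right, and the eIF3 genes fall on both sides of 0.

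The genes for the elongation factor eEF1A differed the most of all translation factor genes. The 3 genes for eEF1A were higher in both mutants by 1.84- to 2.54-fold, while the genes for its exchange factor subunit eEF1B beta, for eEF2 and for eEF3 did not pass the test. None of the 8 elongation factor genes was lower. Of the 8, 4 were higher in STF6 and 4 in STF9 (50% each). In each mutant 3 of the 4 were the eEF1A genes, nearly identical copies for the same factor. The other was SPAC29A4.02c, whose call was lost in most alternative fits. The share is thus mainly that of eEF1A and not a trait of elongation factors at large. Among all genes tested, 19.2% were higher and 19.2% lower in STF6, and 23.0% and 21.3% in STF9.

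The gene tef101 had 1729.9, 1635.6 and 1427.9 CPM in STF6, 1589.4, 1558.2 and 1514.3 CPM in STF9, and 589.6, 864.0 and 430.3 CPM in T4A. Every mutant library lay above every T4A library, and the T4A libraries differed among themselves by 2.01-fold. The log2 fold was 1.35 ± 0.19 (SE) in STF6 (edgeR adjusted p = 0.000189) and 1.31 ± 0.19 in STF9 (adjusted p = 0.00024). For tef102 the values were 801.3, 758.6 and 691.4 CPM in STF6, 732.8, 728.5 and 690.7 CPM in STF9, and 287.8, 386.9 and 224.0 CPM in T4A. Again the groups did not overlap, and the log2 fold was 1.33 ± 0.15 in STF6 (edgeR adjusted p = 3.5e-05) and 1.26 ± 0.15 in STF9 (adjusted p = 6.4e-05). The third copy, tef103, had 1984.4, 1787.2 and 1600.9 CPM in STF6, 1773.6, 1771.4 and 1684.8 CPM in STF9, and 886.4, 1284.1 and 665.4 CPM in T4A. Its groups did not overlap either, and its log2 fold was smaller, at 0.92 ± 0.18 in STF6 (edgeR adjusted p = 0.00186) and 0.88 ± 0.18 in STF9 (adjusted p = 0.0024). All 3 genes kept their call in each of the 16 alternatives in both mutants.

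The 3 copies are hard to tell apart by short reads. Their coding sequences, in RefSeq's annotation of the ASM294v3 assembly, are each 1383 bases long and differ by 15 to 19 bases, with 98.6 to 98.9% identical. Of all stretches of 100 bases, 48.7% in tef101, 36.8% in tef102 and 41.8% in tef103 occur in no other copy. How the authors' counting treated reads that fit several genes is not given in the sources used here, so the level of each copy and its share are uncertain.

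Summed over the copies, eEF1A reached 4139.1 ± 399.4 CPM in STF6, 4014.6 ± 109.7 CPM in STF9 and 1872.9 ± 615.0 CPM in T4A (SD, n = 3 each), or 2.21- and 2.14-fold the T4A mean in STF6 and STF9. As a share of all counts, which uses no scaling between libraries, these genes took 0.388 to 0.455% in STF6, 0.395 to 0.413% in STF9 and 0.144 to 0.218% in T4A. Within the sum, tef103 supplied 43.2 ± 0.628% in STF6, 43.4 ± 0.197% in STF9 and 50.4 ± 0.200% in T4A. The share of tef101 was 38.6 ± 0.447% in STF6, 38.7 ± 0.279% in STF9 and 33.4 ± 0.742% in T4A. The ranges of these shares did not overlap between either mutant and T4A. By the assigned counts tef103 was the leading copy in every library but by less in the mutants, subject to the uncertainty on shared reads.

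**Figure D2:**
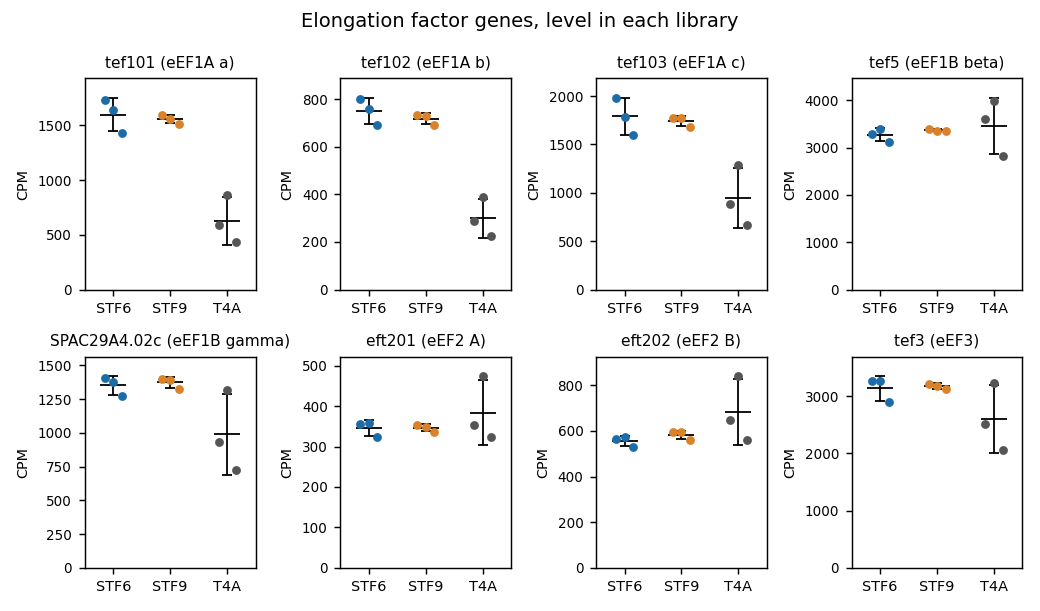
Level of the 8 elongation factor genes in each library (CPM, y axis from 0), with STF6, STF9 and T4A from left to right, a point for each library, and the mean ± SD as a bar. The eEF1A genes are separate between the mutants and T4A, whereas for tef5, eft201, eft202 and tef3 the wide T4A range overlaps the mutant values.

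The exchange factor eEF1B, which reloads eEF1A with GTP, has a beta subunit with the catalytic activity and a gamma subunit that anchors the complex. The gamma gene, SPAC29A4.02c, had 1405.5, 1377.0 and 1272.6 CPM in STF6, 1400.1, 1391.7 and 1325.8 CPM in STF9, and 928.8, 1314.5 and 723.0 CPM in T4A. T4A replicate 2 fell within the STF6 range and just under the lowest STF9 library. The gene passed the test at log2 0.45 ± 0.16 in STF6 (edgeR adjusted p = 0.0436) and 0.47 ± 0.16 in STF9 (adjusted p = 0.0322), but it kept its call in only 5 and 7 of 16 alternatives. The beta gene tef5 averaged 3272.6 ± 141.4 CPM in STF6, 3373.1 ± 23.4 CPM in STF9 and 3466.3 ± 591.4 CPM in T4A and was not called.

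Translation elongation factor eEF2 is also encoded by a pair of genes, whose coding sequences of 2529 bases differ at 11 positions (99.6% identical). Only 22.5% of the stretches of 100 bases in each gene are absent from the other, a smaller share than in any eEF1A copy. The level of each copy and their sum are thus at least as uncertain as for eEF1A. The copy eft201 had 356.0, 357.7 and 323.3 CPM in STF6, 353.4, 349.4 and 337.2 CPM in STF9, and 353.3, 475.0 and 324.2 CPM in T4A. Its partner eft202 had 562.8, 571.4 and 529.9 CPM in STF6, 593.9, 593.0 and 561.1 CPM in STF9, and 648.8, 841.0 and 558.5 CPM in T4A. Both were overlapped by the T4A libraries, in which replicate 2 was the highest, and neither was called in the fit of all 9 libraries. For eft202 the log2 fold of −0.30 ± 0.12 in STF6 had an edgeR adjusted p of 0.0688, close to the threshold of 0.05. It was called lower in STF6 in 3 of 16 alternatives, at an edgeR adjusted p of 0.0207 with library size alone, 0.0436 with the replicate block and 0.00328 (−0.43 ± 0.10) without T4A replicate 3. In STF9 its log2 fold was −0.23 ± 0.12 (edgeR adjusted p = 0.142), and it was called lower without T4A replicate 3 (adjusted p = 0.00831). The authors' deposited tables call eft202 lower in both mutants, at an adjusted p of 0.00682 in STF6 and 0.0270 in STF9. The summed eEF2 level was 900.4 ± 41.2 CPM in STF6, 929.3 ± 27.0 CPM in STF9 and 1066.9 ± 223.8 CPM in T4A (SD, n = 3 each). The eEF3 gene tef3 was not called, at log2 0.27 ± 0.14 in STF6 (edgeR adjusted p = 0.14) and 0.29 ± 0.14 in STF9 (adjusted p = 0.109).

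The T4A libraries spread more than the mutant libraries, and for elongation factors their scaled levels did so in a fixed order. In all 8 of these genes T4A replicate 2 had the highest CPM and T4A replicate 3 the lowest of the T4A libraries, with a median ratio of 1.65 between them. The TMM factors of T4A replicates 1, 2 and 3 were 0.978, 0.859 and 1.09, so the scaling widened that ratio. Cytosolic ribosomal protein genes had the same order in part, with replicate 2 the highest in 114 of 130 and replicate 3 the lowest in 122 of 130. For the ribosomal genes the place of replicate 2 hangs on the scaling between libraries. Their summed share of all counts was 22.8%, 22.4% and 21.2% in T4A replicates 1, 2 and 3, so replicate 3 stayed the lowest. For elongation factors the summed share was 0.959%, 1.06% and 0.851%, with replicate 2 again the highest, but single genes departed from the order. The share of tef5 was highest in replicate 1, with 73400 of 20830106 counts against 69271 of 20274395 in replicate 2. The share of eft201 was lowest in replicate 1, with 7199 of 20830106 counts against 7746 of 21910154 in replicate 3. Over the 44 genes the median SD of log2 CPM was 0.07 in STF6, 0.05 in STF9 and 0.19 in T4A, beside 0.08, 0.09 and 0.20 over all genes tested. The T4A value was close to that of all genes, and the STF9 value was lower. Leaving out T4A replicate 2 added calls of higher for tef3, erf1 and tif213 in both mutants, and of lower for hcr1 in STF6 and sui1 in STF9. Leaving out T4A replicate 3 added calls of lower for eft202 in both mutants and for tef5 and tif222 in STF6, and of higher for tif1102 in STF9.

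Initiation factor genes moved both ways and by less. In STF6, 5 of 32 were higher and 9 lower (15.6% and 28.1%), beside 19.2% and 19.2% among all genes tested. In STF9, 8 were higher and 10 lower (25% and 31.25%), beside 23.0% and 21.3%. The median log2 fold was −0.05 in STF6 and 0.01 in STF9. No initiation factor gene changed by as much as 2-fold.

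The subunits of eIF3, the largest initiation factor, split into opposite sides. Of its 11 genes here, 3 were higher (27.27%) and 6 lower (54.55%) in each mutant. The shares among all genes tested were 19.2% higher and 19.2% lower in STF6, and 23.0% and 21.3% in STF9. The higher ones were tif32 (eIF3a), SPAC25G10.08 (eIF3b) and tif33 (eIF3c). The lower ones were moe1 (eIF3d), eif6, which in spite of its name encodes eIF3f, tif35 (eIF3g), tif38 (eIF3h), sum1 (eIF3i) and tif313 (eIF3m). The loosely bound eIF3j gene hcr1 and clu1, listed with the complex, were not called.

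On the higher side, tif32 had 374.9, 387.8 and 402.5 CPM in STF6, 418.7, 426.9 and 414.8 CPM in STF9, and 326.4, 344.8 and 307.4 CPM in T4A. The groups did not overlap between either mutant and T4A, at log2 0.25 ± 0.07 in STF6 (edgeR adjusted p = 0.0167) and 0.37 ± 0.07 in STF9 (adjusted p = 0.00206). The eIF3c gene tif33 had 360.3, 373.7 and 363.3 CPM in STF6, 384.5, 407.1 and 412.6 CPM in STF9, and 325.2, 317.4 and 306.4 CPM in T4A. All its mutant libraries lay above T4A, at log2 0.21 ± 0.07 in STF6 (edgeR adjusted p = 0.0313) and 0.34 ± 0.07 in STF9 (adjusted p = 0.00223). In STF6 these calls were less firm than in STF9, kept in 13 of 16 alternatives for tif32 and in 8 of 16 for tif33, against all 16 for both genes in STF9. The eIF3b gene averaged 807.8 ± 54.7 CPM in STF6, 785.6 ± 4.44 CPM in STF9 and 641.9 ± 26.8 CPM in T4A, with no overlap, and kept its call in 16 of 16 alternatives in STF6 and in 15 of 16 in STF9.

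On the lower side, moe1 had 887.2, 897.4 and 841.5 CPM in STF6, 900.4, 886.2 and 883.7 CPM in STF9, and 1193.2, 1510.0 and 1057.5 CPM in T4A. Every mutant library was under every T4A library, and the log2 fold was −0.52 ± 0.11 in STF6 (edgeR adjusted p = 0.00388) and −0.49 ± 0.11 in STF9 (adjusted p = 0.00476). The eIF3f gene eif6 had 744.9, 731.6 and 715.4 CPM in STF6, 738.3, 746.7 and 703.6 CPM in STF9, and 925.6, 1045.4 and 875.8 CPM in T4A. Its groups were likewise separate, at log2 −0.38 ± 0.09 in both STF6 (edgeR adjusted p = 0.00461) and STF9 (adjusted p = 0.00415). For the other four the log2 fold was −0.38 to −0.23 in STF6 and −0.38 to −0.23 in STF9, without overlap between the groups. Of these 6 genes, tif313 alone lost its call in any alternative, in 4 of 16 for each mutant.

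The direction followed only in part the make-up of eIF3 in budding yeast (Saccharomyces cerevisiae). The core there consists of subunits a, b, c, g and i. Of these 5 subunits 3 were higher and 2 lower in each mutant. All 4 of the subunits d, f, h and m, which budding yeast lacks, were lower, and int6 (eIF3e) was not examined here. The higher genes were the ones with the lower levels per length, as eIF3a, eIF3b and eIF3c averaged 114.8 to 294.7 CPM per kilobase of coding sequence in T4A, and the 6 lower genes 503.0 to 1043.9. They are also the longest of the 9, with 2178 to 2799 coding bases against 849 to 1704. The mean level per kilobase of eIF3a, b and c over that of the other 6 was 0.338 ± 0.000825 in STF6, 0.346 ± 0.00736 in STF9 and 0.216 ± 0.0190 in T4A (SD, n = 3 each). This ratio within a library needs no scaling between libraries. It was 0.225, 0.194 and 0.228 in T4A and 0.337 to 0.354 in the mutant libraries, a description with no test since the sides were chosen by their folds.

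**Figure D3:**
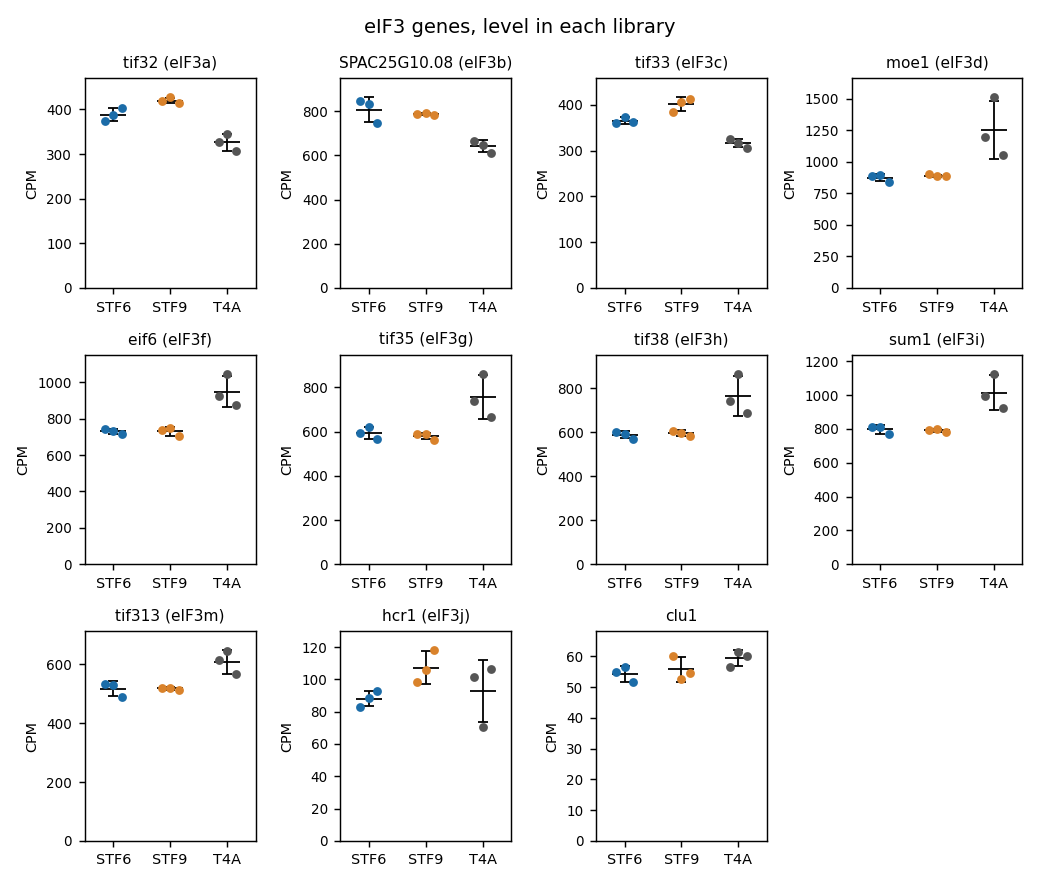
Level of the 11 eIF3 genes in each library (CPM, y axis from 0), with STF6, STF9 and T4A from left to right, a point for each library, and the mean ± SD as a bar. The first 3 panels are higher in the mutants, the next 6 are lower, and hcr1 and clu1 overlap between the groups.

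Outside eIF3, the initiation factor genes higher in both mutants included tif471, for the scaffold eIF4G, and tif52, for the GTPase eIF5B that joins the ribosomal subunits. In STF6 tif471 had 294.8, 311.1 and 323.5 CPM, in STF9 325.6, 340.6 and 367.1 CPM, and in T4A 237.7, 205.2 and 249.3 CPM. No mutant library reached down to T4A, at log2 0.42 ± 0.09 in STF6 (edgeR adjusted p = 0.0024) and 0.58 ± 0.09 in STF9 (adjusted p = 0.000339), and both calls held in all 16 alternatives. In STF6 tif52 had 202.7, 214.8 and 217.4 CPM, in STF9 224.4, 234.5 and 255.1 CPM, and in T4A 173.5, 133.1 and 181.3 CPM. Its groups did not overlap, at log2 0.38 ± 0.10 in STF6 (edgeR adjusted p = 0.0127), where 3 of 16 alternatives ended the call, and 0.55 ± 0.10 in STF9 (adjusted p = 0.00153), where none did.

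Lower in both mutants were tif1, for the RNA helicase eIF4A, tif221, for the alpha subunit of eIF2B, and tif6, the homolog of eIF6, which keeps free large ribosomal subunits apart and is needed to make them. The gene tif6 had 474.2, 487.4 and 474.1 CPM in STF6, 499.4, 485.7 and 489.0 CPM in STF9, and 676.9, 751.6 and 614.4 CPM in T4A. Both mutants lay wholly under T4A, and at log2 −0.51 ± 0.08 in STF6 (edgeR adjusted p = 0.000606) and −0.47 ± 0.08 in STF9 (adjusted p = 0.00101) it had the smallest p of the lower genes. For tif221 the values were 279.1, 293.6 and 276.8 CPM in STF6, 292.4, 284.5 and 291.0 CPM in STF9, and 380.6, 437.8 and 347.3 CPM in T4A. These groups were also separate, at log2 −0.46 ± 0.09 in STF6 (edgeR adjusted p = 0.00144) and −0.43 ± 0.09 in STF9 (adjusted p = 0.00218). The eIF4A gene tif1 averaged 3660.4 ± 90.3 CPM in STF6, 3848.6 ± 44.9 CPM in STF9 and 4986.8 ± 703.0 CPM in T4A, without overlap, and lost its call in 2 of 16 alternatives in STF9.

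The eIF4G and eIF4A proteins bind each other in the eIF4F complex, and their genes lay on opposite sides here. Per kilobase, the level of tif471 over that of tif1 was 0.0237 ± 0.00130 in STF6, 0.0251 ± 0.00175 in STF9 and 0.0132 ± 0.00306 in T4A (SD, n = 3 each). Every mutant library had a higher ratio than every T4A library, of which T4A replicate 2 had the lowest. This separation follows from the choice of a gene above T4A and a gene below it, so the ratio is a description with no test.

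The cap-binding eIF4E has a main gene, tif45, and a gene for an isoform tied to stress, tif452. In STF6 tif45 had 177.6, 194.5 and 199.4 CPM, in STF9 196.5, 210.8 and 235.5 CPM, and in T4A 190.1, 144.1 and 188.1 CPM. STF6 overlapped T4A and STF9 did not, with log2 0.13 ± 0.11 in STF6 (edgeR adjusted p = 0.359) and 0.30 ± 0.11 in STF9 (adjusted p = 0.0393, kept in 7 of 16 alternatives). The isoform gene tif452 had 90.5, 92.7 and 96.1 CPM in STF6, 93.4, 94.0 and 105.6 CPM in STF9, and 94.3, 74.4 and 95.0 CPM in T4A. It overlapped T4A in both mutants and was not called. The difference between STF9 and STF6 was not called for either gene.

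Most of the eIF2 genes and most of the eIF2B genes were not called. eIF2B, the exchange factor that recharges eIF2 with GTP and is held back when eIF2 is phosphorylated, has 5 subunits. Besides tif221, the beta subunit gene tif222 was lower in STF9, at log2 −0.23 ± 0.07 (edgeR adjusted p = 0.0266, kept in 13 of 16 alternatives), and −0.17 ± 0.07 in STF6 (adjusted p = 0.0892). The gamma, delta and epsilon genes, of which gamma and epsilon form the catalytic part, were not called and had log2 folds of −0.04 to 0.14. Of the 3 eIF2 genes, tif212 (beta) was higher in STF9 at log2 0.41 ± 0.12 (edgeR adjusted p = 0.0164, kept in 13 of 16 alternatives). The alpha gene tif211, whose product is the target of the eIF2 kinases, had log2 −0.05 ± 0.08 in STF6 and −0.05 ± 0.08 in STF9.

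Genes for eIF1 and eIF1A, factors of start codon choice, and a predicted eIF1A-like gene were not called. The eIF1A gene tif11 had 396.3, 407.9 and 397.6 CPM in STF6, 382.5, 392.7 and 408.2 CPM in STF9, and 386.1, 368.0 and 418.5 CPM in T4A. The predicted eIF1A-like gene tif1102 had 24.0, 26.2 and 24.4 CPM in STF6, 21.5, 25.9 and 29.3 CPM in STF9, and 22.1, 10.8 and 25.3 CPM in T4A. Both genes overlapped between all groups, and T4A replicate 2 held the lowest value of tif1102, 2.34-fold under the highest T4A library. The log2 fold of tif11 was 0.04 ± 0.07 in STF6 and 0.01 ± 0.07 in STF9. That of tif1102 was larger and less precise, at 0.35 ± 0.23 in STF6 (edgeR adjusted p = 0.252) and 0.39 ± 0.23 in STF9 (adjusted p = 0.19). Without T4A replicate 3, tif1102 was called higher in STF9 (edgeR adjusted p = 0.0359). The eIF1 gene sui1 lay slightly under T4A in every mutant library and was not called, at log2 −0.09 ± 0.07 in STF6 (edgeR adjusted p = 0.343) and −0.16 ± 0.07 in STF9 (adjusted p = 0.0864).

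**Figure D4:**
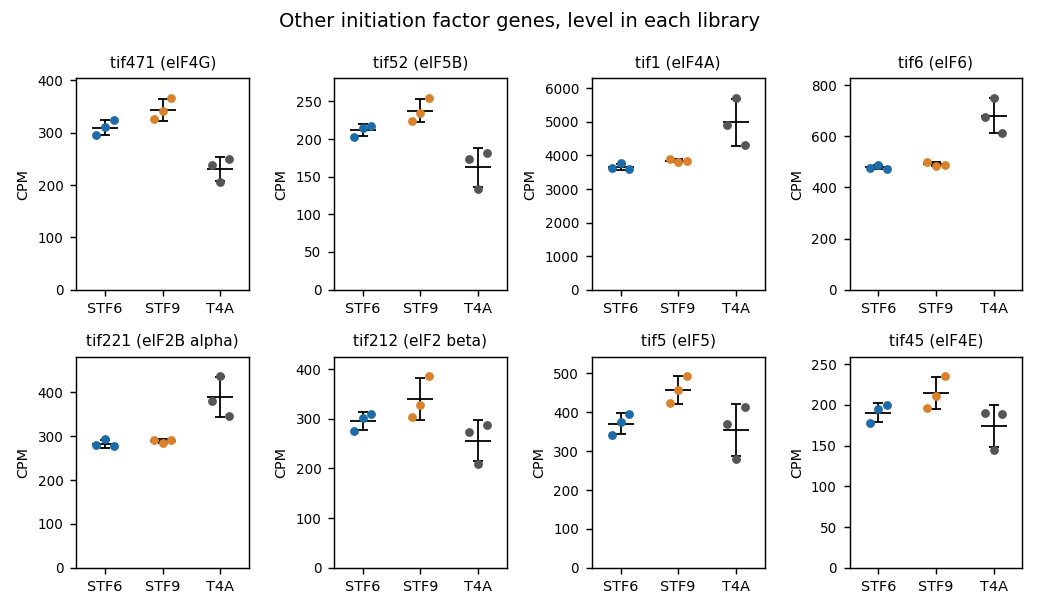
Level of 8 initiation factor genes outside eIF3 in each library (CPM, y axis from 0), with STF6, STF9 and T4A from left to right, a point for each library, and the mean ± SD as a bar. tif471 and tif52 are above T4A and tif1, tif6 and tif221 below it in all mutant libraries. tif212, tif5 and tif45 are above it in STF9 and overlap it in STF6.

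The termination genes are few. The eRF3 gene sup35 had 528.3, 495.4 and 428.7 CPM in STF6, 473.3, 465.6 and 483.6 CPM in STF9, and 418.8, 402.3 and 388.6 CPM in T4A. Its mutant libraries were all above T4A, at log2 0.26 ± 0.09 in STF6 (edgeR adjusted p = 0.028) and 0.23 ± 0.09 in STF9 (adjusted p = 0.0417), calls kept in only 10 and 6 of 16 alternatives. The eRF1 gene erf1 had 522.3, 511.0 and 453.1 CPM in STF6, 495.6, 469.5 and 466.8 CPM in STF9, and 444.2, 505.2 and 400.8 CPM in T4A. T4A replicate 2 lay among the mutant libraries, and erf1 was not called. Dom34 and Hbs1 rescue ribosomes stalled on an mRNA. Their genes were at 13.3 to 20.0 CPM per kilobase of coding sequence on average, against 203 to 381 for sup35 and erf1. Of this pair, hbs1 was higher in STF9, at log2 0.45 ± 0.13 (edgeR adjusted p = 0.014, kept in 13 of 16 alternatives), and dom34 was not called.

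STF9 and STF6 could be compared directly, which does not draw on T4A except for the estimate of spread. The T4A libraries spread more than the mutant libraries, so a missing call here does not show that the mutants are alike. In 9 of the 44 genes the STF9 and STF6 libraries did not overlap, 8 with STF9 above and 1 with STF9 below, beside 9.63% above and 7.36% below among all genes tested. The gene with the smallest p was tif5, for the eIF5 that triggers GTP hydrolysis on eIF2, with 422.5, 456.0 and 493.5 CPM in STF9, 340.5, 376.0 and 395.1 CPM in STF6, and 368.9, 279.9 and 412.3 CPM in T4A. Its STF9 libraries lay above those of STF6, with a log2 difference of 0.30 ± 0.12 that was not called (edgeR adjusted p = 0.98). In a fit of only those 6 libraries it was called, at log2 0.30 ± 0.06 (edgeR adjusted p = 0.0209). Second came hcr1, with 98.1, 106.1 and 118.0 CPM in STF9, 83.2, 88.5 and 92.8 CPM in STF6, and 101.4, 70.6 and 106.4 CPM in T4A. Its log2 difference of 0.29 ± 0.13 had an edgeR adjusted p of 0.98. Against T4A, tif5 was higher in STF9 alone, at log2 0.37 ± 0.12 (edgeR adjusted p = 0.0284, kept in 8 of 16 alternatives). The other genes called in STF9 alone were tif212, tif222, tif45 and hbs1, and none of the 5 differed by a call between STF9 and STF6.

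**Figure D5:**
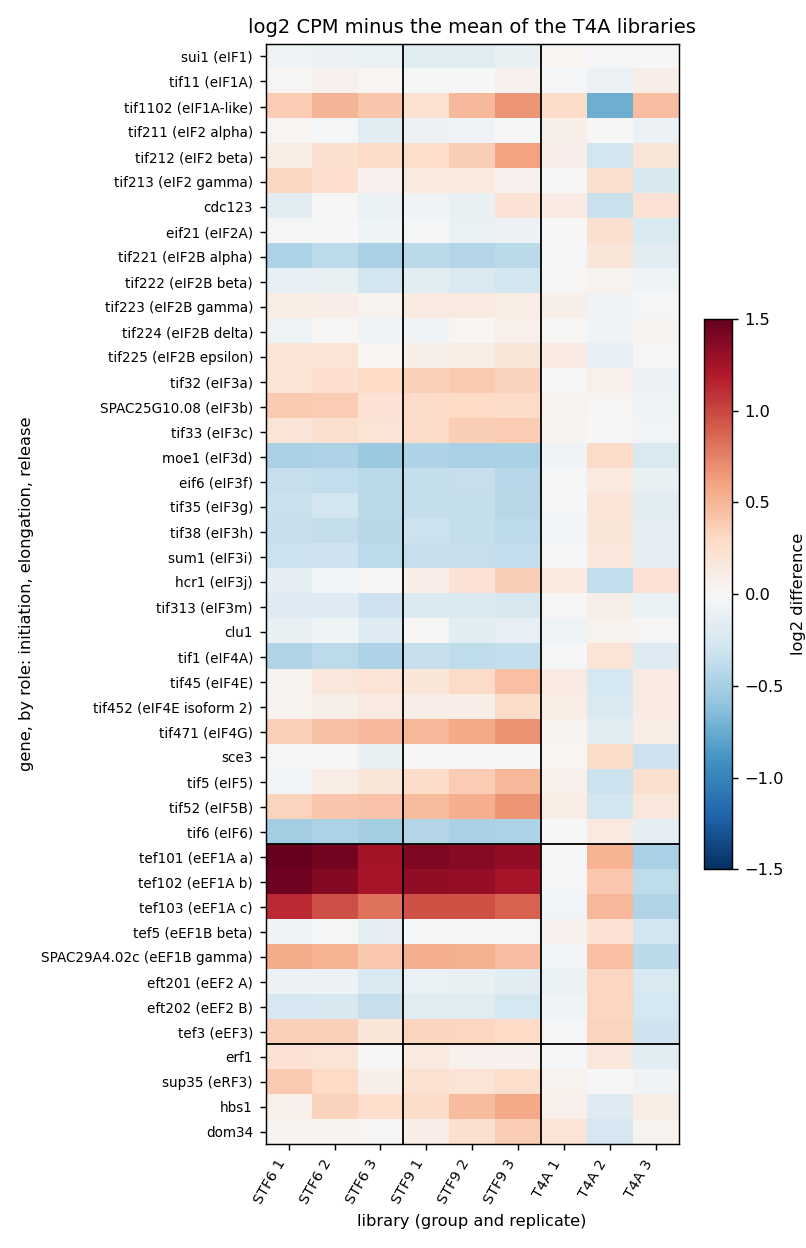
Log2 CPM minus the mean of the T4A libraries for the 44 translation factor genes (rows, by role) in each library (columns, STF6, STF9 and T4A from left to right). The strongest colour is at the eEF1A genes in all 6 mutant libraries, and T4A replicates 2 and 3 depart from T4A replicate 1 in opposite directions for all 8 elongation factor genes.

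Levels per length ordered the factors in much the same way in each group. The eEF1B beta gene tef5 was the highest in all 3 groups, at 5073.9 ± 219.2 CPM per kilobase of coding sequence in STF6, 5229.6 ± 36.2 in STF9 and 5374.2 ± 916.9 in T4A (SD, n = 3 each). Next was tif1 (eIF4A), at 3104.7 ± 76.6 in STF6, 3264.3 ± 38.1 in STF9 and 4229.7 ± 596.3 in T4A, and after it sui1 (eIF1). The clu1 gene was last in both mutants, at 15.4 ± 0.727 in STF6 and 15.8 ± 1.12 in STF9, and hbs1 was last in T4A, at 13.3 ± 1.53. The eEF1A genes tef103 and tef101 ranked 4 and 5 of the 44 in both mutants, against 14 and 17 in T4A, with the reservation on reads shared by the copies. Spearman's rho between the average log2 CPM, not divided by length, and the log2 fold was −0.11 in STF6 and −0.20 in STF9 over the 44 genes. Among the 32 initiation factor genes alone it was −0.46 in STF6 and −0.52 in STF9. Over the 4924 genes with a coding length it was −0.29 and −0.33 in STF6 and STF9. These are descriptions across genes that share libraries, with no test.

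Coding length went with the side as well. The called-higher genes had a median of 2083.5 coding bases in STF6 and 1581 in STF9, and the called-lower genes 1026 in STF6 and 1050 in STF9. Spearman's rho between coding length and log2 fold was 0.37 in STF6 and 0.31 in STF9 over the 44 genes, 0.31 in STF6 and 0.24 in STF9 over the 32 initiation factor genes, and −0.01 in STF6 and −0.01 in STF9 over the 4924 genes with a length.

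Related genes gave a setting for these values. Among all genes tested, 19.2% were higher and 19.2% lower in STF6, and 23.0% and 21.3% in STF9. Of the 7 mitochondrial translation factors 4 were higher (57.1%) and none lower in each mutant. Their median log2 fold was 0.52 in STF6 and 0.45 in STF9. Without STF9 replicate 1, 2 were higher in STF9. The smallest p was that of mef1, for the mitochondrial elongation factor G, which was higher with 35.6 ± 2.17 CPM in STF6, 39.5 ± 2.76 CPM in STF9 and 16.0 ± 0.827 CPM in T4A. tuf1, for the mitochondrial counterpart of eEF1A, averaged 199.0 ± 20.4 CPM in STF6, 189.6 ± 12.6 CPM in STF9 and 138.8 ± 29.8 CPM in T4A and was called in STF6 and STF9. Of 130 cytosolic ribosomal protein genes, 8 were higher (6.2%) and 46 lower (35.4%) in STF6. In STF9, 12 of them were higher (9.2%) and 25 lower (19.2%). Those lower counts were 94 in STF6 and 73 in STF9 without T4A replicate 3, and 21 in STF6 and 6 in STF9 without T4A replicate 1. Without T4A replicate 2 the higher counts were 17 in STF6 and 22 in STF9. Leaving out a mutant library gave 4 to 7 higher and 26 to 35 lower in STF6 (STF6 replicates 1, 2 and 3), and 6 to 9 higher and 6 to 14 lower in STF9 (STF9 replicates 1, 2 and 3).

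Genes that charge tRNAs or act on the factors had calls on both sides, in numbers that hung on single libraries. Of 18 aminoacyl-tRNA ligase genes, 2 were higher and 4 lower in STF6, and 3 higher and 5 lower in STF9. Without T4A replicate 3 they were 1 higher and 9 lower in STF6, and 2 higher and 10 lower in STF9. Without T4A replicate 1, 3 were lower in STF9. Leaving out any 1 mutant library gave 1 higher in each mutant, and 3 lower in STF9 without STF9 replicate 2 or 3. Among them qrs1, for the glutaminyl-tRNA ligase, was higher at log2 0.63 ± 0.07 in STF6 and 0.62 ± 0.07 in STF9, and frs1, for a phenylalanyl-tRNA ligase subunit, was lower at log2 −0.62 ± 0.09 in STF6 and −0.58 ± 0.09 in STF9. Of 8 genes for eIF2 kinases and amino acid control, 1 was higher and 2 lower in each mutant. Without T4A replicate 3 they were 3 higher and 3 lower in STF9. The higher count was 0 in STF6 without T4A replicate 1, any STF6 library, or STF9 replicate 1 or 2, and 0 in STF9 without STF9 replicate 2 or 3. The eIF2 kinase gene hri1 was lower at log2 −0.83 ± 0.16 in STF6 and −0.84 ± 0.16 in STF9, while the kinase gene gcn2 was higher, with 62.5 ± 2.22 CPM in STF6, 66.6 ± 6.29 CPM in STF9 and 48.4 ± 9.43 CPM in T4A. gcn1, whose product activates Gcn2, was lower at log2 −0.66 ± 0.13 in STF6 and −0.63 ± 0.13 in STF9.

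Of 9 genes for ribosome recycling, rescue and quality control, 2 of which are dom34 and hbs1 themselves, none was higher and 2 were lower in STF6, and 2 were higher and 2 lower in STF9. The higher count was 1 in STF6 without T4A replicate 3, and in STF9 it was 1 without STF9 replicate 2 and 0 without STF9 replicate 3. rli1, for the ATPase that splits ribosomes after termination, was lower with 553.8 ± 21.4 CPM in STF6, 557.2 ± 18.0 CPM in STF9 and 835.1 ± 107.2 CPM in T4A. rkr1, for a ubiquitin ligase acting on stalled chains, was lower with 141.0 ± 4.44 CPM in STF6, 139.8 ± 9.29 CPM in STF9 and 240.7 ± 46.1 CPM in T4A. Of 14 genes that modify translation factors, 1 was higher and 3 lower in STF6, and 3 higher and 3 lower in STF9. In STF6 they were 4 higher and 1 lower without T4A replicate 1, 3 higher and 3 lower without T4A replicate 2, and 2 higher and 3 lower without T4A replicate 3. In STF9 they were 2 higher and 1 lower without STF9 replicate 3. Those named by the smallest p act in making diphthamide, the modified histidine of eEF2, and they went both ways: dph4 was higher at log2 0.76 ± 0.16 in STF6 and 0.93 ± 0.16 in STF9, and dph7 lower at −0.43 ± 0.07 in STF6 and −0.44 ± 0.07 in STF9. Of 18 TOR pathway genes, 4 were higher and 6 lower in STF6, and 3 higher and 6 lower in STF9. The higher count in STF6 was 2 without any 1 STF6 library and without STF9 replicate 1 or 2. The shares called in these lists compare with 38.4% called in STF6 (19.2% higher and 19.2% lower) over all genes tested. In STF9 that share was 44.2% (23.0% higher and 21.3% lower).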

How the data were processed

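RNA was measured in 9 libraries, 3 each of STF6, STF9 and T4A. Libraries were stranded, poly(A)+ and paired-end, from RNA purified with hot acid phenol, per the labels' protocols. The submitters' processing notes name HISAT2 2.1.0 and HTSeq 0.10.0, besides SAMtools and DESeq2, with build ASM294v2. The sources used here state neither the annotation nor the strand setting, nor what was done with reads that match more than 1 place. The authors deposited raw counts per gene, with no normalization. Their 2 deposited comparison tables hold, per the file headers, log2 fold changes with standard errors, a Wald score, p-values, and mean normalized counts, treated here as a signal. Only the calls of those tables are compared with the ones made here.

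Of 6987 table lines, 1 all-zero duplicate was dropped. In R 4.3.3, edgeR 4.0.16 kept 5951 genes by filterByExpr, scaled them by TMM and fitted all 9 libraries by group. Tests were glmQLFTest with Benjamini-Hochberg adjustment over the 5951 genes, called under 0.05. SE is the log2 fold over the root of F. Coding lengths come from RefSeq's annotation of ASM294v3, found for 44 of 44 genes. On simulated counts for STF6 against T4A, 67.2% of 1.5-fold and 92.5% of 2-fold changes were recovered, for STF9 against T4A 65.7% and 92.5%, and for STF9 against STF6 70.1% and 95.5%. False calls numbered 11, 5 and 14 in the same order. The simulation gave a gene the same dispersion in all 9 libraries, whereas the T4A libraries spread more, so these rates may not hold here. Changes under 1.5-fold were not simulated, and most called translation factor genes changed by less than that. Figures used matplotlib 3.10.9.

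The members and lists were chosen with earlier results of these data known. Values in every library are given for the 8 called genes with the smallest p in each mutant against T4A, the 4 with the smallest p in STF9 against STF6, gene families, eRF1, eRF3 and, chosen after their values were seen, SPAC29A4.02c. In other lists up to 3 called genes with the smallest p could be named. Replicate numbers did not pair the libraries. No promoter sequences were used here, so the planned motif search was not run.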

Additional observations from a re-analysis of the deposited data

How the results depend on the processing

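Scaling was varied (median-ratio size factors, or none beyond library size), the filter was dropped or set to 1 CPM in every library, DESeq2 replaced edgeR, the fit was cut to the 6 libraries of a comparison, a replicate block was added, and each library was left out in turn, 16 alternatives in all. For the named genes, 950 of the resulting values kept their side of the threshold, 47 lost the call and 11 gained one. No called value changed sign, and 28 values of genes not called did. Of the translation factor genes called, 5 of 10 higher and 8 of 9 lower in STF6, and 7 of 14 higher and 7 of 10 lower in STF9, were called in every alternative. In STF6 against T4A, the number higher was 6 in a fit of the 6 libraries, and 5 to 13 when 1 library was left out. In STF9 against T4A it was 7 to 17 when 1 library was left out. The cause was not tested. Leaving out 1 library ended calls of SPAC29A4.02c, sup35, tif32, tif33, tif52 and tif313 in STF6, and of SPAC29A4.02c, SPAC25G10.08, sup35, tif1, tif5, tif45, tif212, tif222, tif313 and hbs1 in STF9, most often without replicate 2 or 3 of the mutant. Over all genes, leaving out 1 library gave 745 to 1410 higher in STF6 against T4A, and 807 to 1645 higher and 814 to 1528 lower in STF9 against T4A. In STF9 against STF6, DESeq2 called 1 gene lower, the fit of 6 libraries called 7 higher and 10 lower, 1 of the higher ones being tif5, and leaving out 1 library gave 0 to 6 lower, with 6 without T4A replicate 2 and 1 without T4A replicate 3. With the replicate block, 10 translation factor genes were higher and 10 lower in STF6, and 14 and 10 in STF9. Same-numbered libraries had correlations of −0.306 to 0.380 in their deviations, and 2 of 9 libraries correlated best with their own number. By the authors' deposited tables, of the 44 genes 10 were higher and 11 lower in STF6, and 14 and 11 in STF9. All 19 and 24 genes called here in STF6 and STF9 were called the same way there. Depth limits mainly dom34, hbs1, cdc123 and tif1102, with 188 to 692 counts per library.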
